A study of Mus musculus with 14 samples.

Results

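Adipocytes of the epididymal fat pad, a visceral white depot, were compared with adipocytes of the inguinal pad, a subcutaneous white depot, in mice on a high-fat diet. The comparison took the 3 epididymal and the 3 inguinal high-fat libraries and every gene with at least 0.5 FPKM (a fragment count divided by transcript length and by sequencing depth) in at least 3 of these 6 libraries. Mitochondrial tRNA genes and features with a known length under 200 bases were set aside (543 features that stayed have no length in the reference used), which left 13503 of the 38553 genes listed, 12078 of them protein coding and 407 long noncoding. The series measured poly(A) RNA of epididymal, inguinal and interscapular brown adipocytes on both diets in 14 libraries. All mice were male and of the C57BL/6 strain, and no gene was altered. The high-fat diet, or normal chow for the other groups, began at weaning at 3 weeks of age and lasted 16 weeks. Each library came from the pooled tissue of 3 to 5 mice. Minced pads were digested with collagenase for 20 min, and RNA was taken from the layer of cells that floated. The spread between libraries is therefore a spread between pools, not between single mice.

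White fat stores triglyceride in its adipocytes and releases hormones such as leptin and adiponectin. The epididymal pad lies inside the abdomen under a sheet of mesothelium, whereas the inguinal pad lies under the skin, and the precursor cells of these depots carry different sets of positional transcription factors. In obese mice the epididymal pad is known for macrophages that surround dying adipocytes and take up their lipid. A floating layer can carry such cells along with fragments of vessels, so adipocyte genes and markers of other cells were both examined.

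The 6 libraries carried adipocyte RNA in both groups. All 16 adipocyte markers were measured, their summed level was 26029 to 38579 FPKM in the epididymal and 30103 to 45279 FPKM in the inguinal libraries, and 1 of the 16, *Pck1*, was lower in epididymal libraries (log2 difference -1.08 ± 0.33, adjusted p = 0.047), a call lost when any library but epididymal replicate 2 was left out (adjusted p up to 0.15). *Adipoq*, which encodes adiponectin, was at 1515, 1443 and 2354 FPKM in epididymal and 1521, 1811 and 2035 FPKM in inguinal libraries. These ranges overlap, and the log2 difference was -0.04 ± 0.23, adjusted p = 0.93. Markers of the epididymis, vas deferens and testis were near 0 (summed level 0.0508 to 1.74 FPKM in epididymal libraries, with 15 of 20 listed at 0). Skin and mammary epithelial markers summed to at most 3.38 FPKM in the 6 libraries. Between 16668 and 17115 genes lay above 0 per library. Across the genes tested, libraries of a group correlated with Spearman's rho of 0.963 to 0.98 and libraries of different groups with 0.892 to 0.931.

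A feature of the libraries ran along the depots. Of 22 mitochondrial tRNA genes, none was above 0 in an epididymal library, while 10, 17 and 18 were in the inguinal ones. In all, 58 features were listed at 0 in the 3 epididymal libraries and at 1 FPKM or more in the 3 inguinal ones, and 34 of them were pseudogenes and 10 mitochondrial tRNA genes. On the normal diet, 53 and 52 of the 58 were above 0 in inguinal replicates 1 and 2, but 9 were in inguinal replicate 0 and 7 to 13 in the epididymal libraries. In reverse, 8 features were at 0 in the inguinal and at 1 FPKM or more in the epididymal high-fat libraries, 6 of them pseudogenes. Of these 8, 7 were above 0 in inguinal normal-diet replicate 0 and 2 in each of replicates 1 and 2. Inguinal normal-diet replicate 0 thus resembled the epididymal libraries in this respect. Apart from this, a gene without a symbol was at 2.96e+06 to 4.76e+06 FPKM in epididymal and 4.07e+05 to 6.59e+05 FPKM in inguinal high-fat libraries. On the high-fat diet the library feature and the depot cannot be told apart, and the genes it touches most, those with near-identical copies, are given near the end.

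Between the depots, 3134 of 13503 genes (23.2%) differed at an adjusted p under 0.05 (limma on log2(FPKM + 0.5), two-sided, Benjamini-Hochberg adjustment over all genes tested). As shares of all genes tested, 2052 (15.2%) were higher in epididymal and 1082 (8.01%) higher in inguinal adipocytes, and 1099 (8.14%) and 674 (4.99%) were called with a difference of at least 2-fold. The shares of 15.2% and 8.01% are the background for all list counts below. Groups did not overlap for 3125 of the 3134. Among all 13503 genes tested, groups did not overlap for 3360 (24.9%) with epididymal above and 2039 (15.1%) with inguinal above. A small p in so few libraries itself favours separated groups, so the count among called genes is no added support. Differences are given as epididymal minus inguinal log2(FPKM + 0.5) with the standard error, and this scale understates changes of low genes. The median over all genes tested was 0.06. The balance depends on the scale: 1704 genes were higher and 1519 lower after quantile normalization, and 1364 were higher and 2132 lower after rescaling to the sum of non-mitochondrial mRNA, which moved the median of all genes by -0.22. In bulk RNA, fewer cells of a type and less RNA per cell cannot be told apart.

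**Figure D1:**
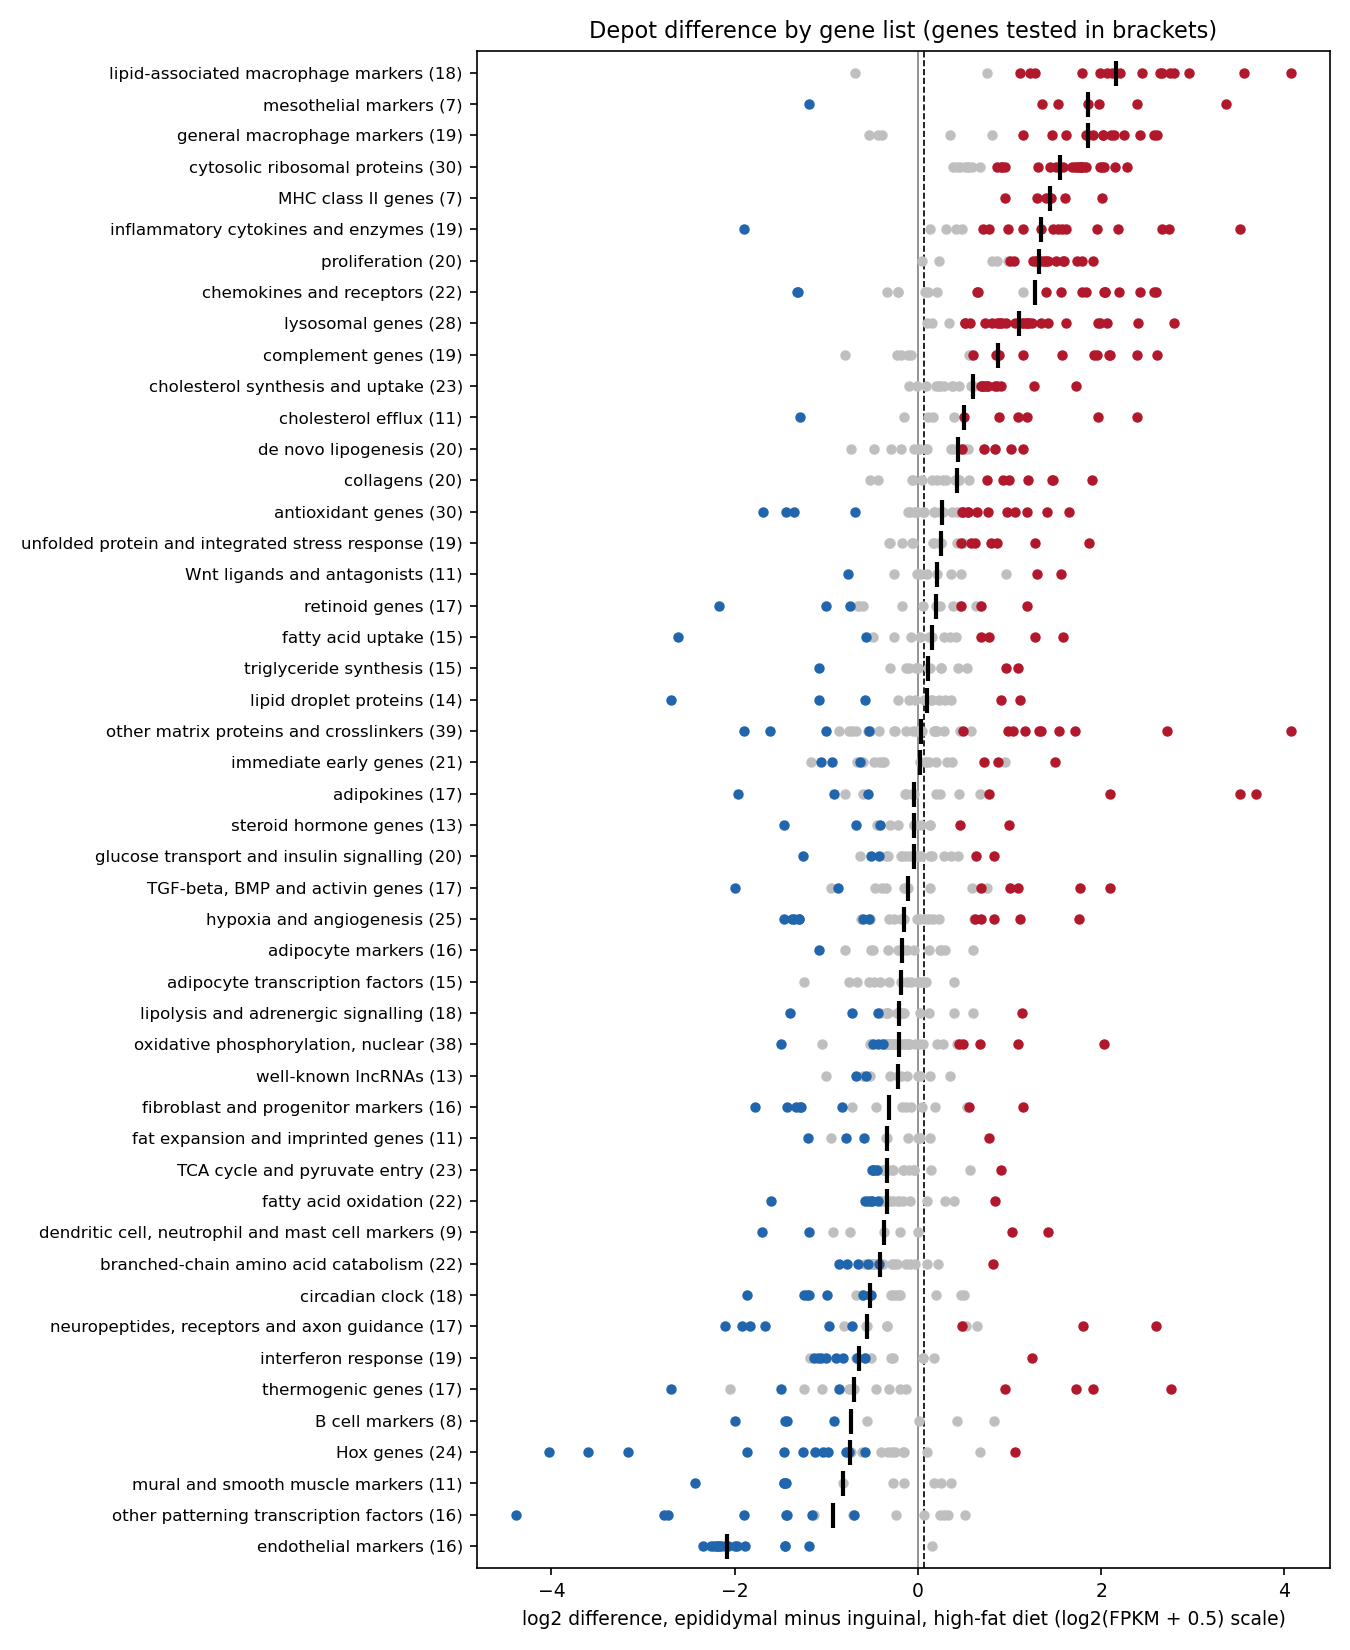
Each point is a gene, placed by its log2 difference between epididymal and inguinal adipocytes on the high-fat diet, in the 48 lists with at least 7 genes tested. Red and blue points passed the test (higher in epididymal and in inguinal), grey points did not, black bars are list medians and the dashed line is the median of all genes tested. Lipid-associated macrophage markers lie furthest right (median 2.16), followed by general macrophage and mesothelial markers (both 1.86), and endothelial markers lie furthest left (-2.09). Of the 7 mesothelial markers 6 passed the filter on low values only through the epididymal libraries, so the side of their median was fixed by it.

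Positional transcription factors differed strongly between the depots. Of 24 HOX genes tested (of 38 in the files), 12 were lower in epididymal adipocytes, against 8.01% of all genes, and 1 was higher (2 without inguinal replicate 1); the median was -0.75. HOX genes lie in 4 clusters and record the position of a cell along the body axis. *Hoxc10* (chromosome 15, 102966796 to 102971898 in GRCm38.p6) was at 0.614, 0.146 and 0.0360 FPKM in the epididymal and 9.85, 13.8 and 10.8 FPKM in the inguinal libraries. *Hoxa10* was at 0.717, 0.158 and 0.0815 FPKM in epididymal and 8.46, 8.07 and 10.4 FPKM in inguinal libraries, and its neighbour *Hoxa9* (chromosome 6) was at 0.687, 0.466 and 0.0404 FPKM in the epididymal and 4.96, 10.6 and 6.96 FPKM in the inguinal libraries. All 3 genes were below 1 FPKM in every epididymal library and at 4.96 FPKM or more in every inguinal one, with log2 differences of -4.03 ± 0.29, adjusted p = 0.00011, -3.60 ± 0.29, adjusted p = 0.00015 and -3.17 ± 0.36, adjusted p = 0.00055. *Hoxc9*, *Hoxb8*, *Hoxa7* and *Hoxd8* were lower too, by smaller amounts (log2 differences -1.87, -1.46, -1.12 and -0.78). *Hoxc4*, an anterior member, went the other way, at 5.58, 4.23 and 4.55 FPKM in epididymal and 1.72, 2.09 and 2.28 FPKM in inguinal libraries (log2 difference 1.06 ± 0.19, adjusted p = 0.0042). The *Hox* list did not move as a block: 11 members, among them *Hoxc6* (-0.25) and *Hoxb4* (-0.28), did not pass the test.

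Other patterning factors were lower in epididymal adipocytes or did not pass the test. Of 16 tested (of 37 listed), 8 were lower and none was higher, with a median of -0.92. *Shox2*, a homeobox gene on chromosome 3 known from limb development, was at 0, 0.0257 and 0 FPKM in the epididymal and 5.88, 9.22 and 18.9 FPKM in the inguinal libraries. *Tbx15*, a T-box factor of the trunk mesoderm, was listed at 0 in all epididymal libraries and at 2.58, 2.81 and 3.10 FPKM in the inguinal ones. *Lhx8*, a LIM homeobox gene, was at 0, 0.0396 and 0.0658 FPKM in epididymal and 3.22, 3.33 and 2.92 FPKM in inguinal libraries. The groups of each gene were far apart, and the log2 differences were -4.39 ± 0.37, adjusted p = 0.00017 for *Shox2* and -2.77 ± 0.22, adjusted p = 0.00015 for *Lhx8*. For *Tbx15* (log2 difference -2.73 ± 0.22, adjusted p = 0.00015) an exact permutation test over the libraries gave p = 0.1 (two-sided), the smallest that 3 against 3 libraries allow. *Twist1* and *Twist2*, basic helix-loop-helix factors of mesenchyme, were lower by 0.70 and 1.43 on the log2 scale, and the Iroquois genes *Irx1*, *Irx2* and *Irx3* had log2 differences of -1.44, -1.90 and -1.16. With a filter of 2 FPKM the count of lower members was 5. Of the 16 patterning factors tested, 5 passed the filter on low values only through the inguinal libraries, so their direction was fixed by it and their count is no support. *Wt1* and *Tcf21*, factors known from visceral precursors, did not pass the filter on low values: *Wt1* was at 0.289 to 0.361 FPKM in epididymal libraries and at most 0.0354 FPKM in inguinal ones.

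**Figure D2:**
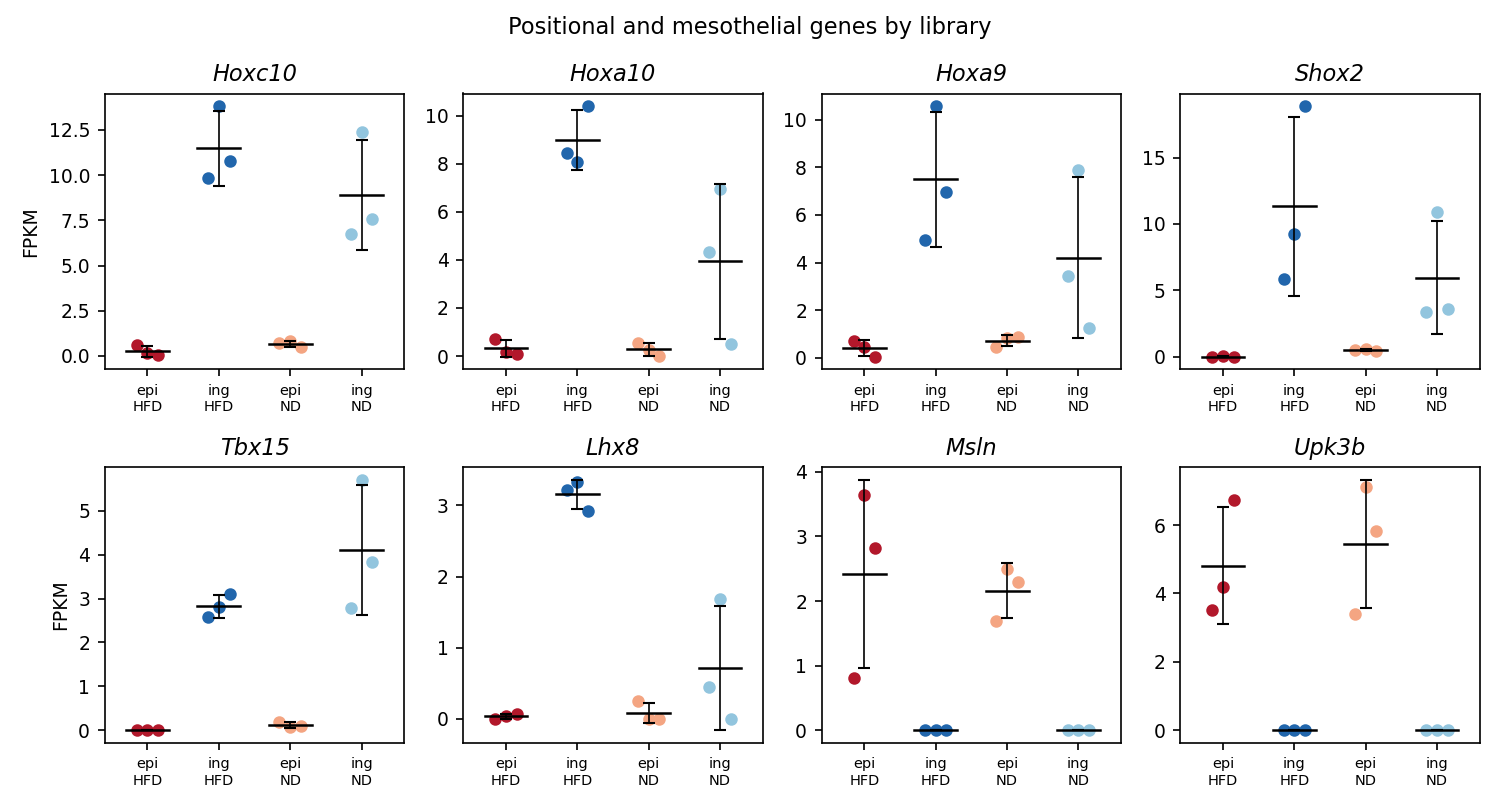
FPKM of 8 genes by library in the 4 white groups (epi, epididymal; ing, inguinal; HFD, high-fat diet; ND, normal diet); points are libraries, lines are means and bars are SD of 3 libraries. *Hoxc10*, *Hoxa10*, *Hoxa9*, *Shox2*, *Tbx15* and *Lhx8* are near 0 in all epididymal high-fat libraries, and *Msln* and *Upk3b* are at 0 in all inguinal ones.

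Most mesothelial markers were higher in the epididymal libraries. Of 12 markers in the files 7 were tested; 6 were higher in epididymal and *Cldn15* was lower (log2 difference -1.19). All 6 passed the filter on low values only through the epididymal libraries, so their direction was fixed by it and the count is no support. With a filter of 2 FPKM 1 was higher. *Upk3b*, an uroplakin of the mesothelium, was at 3.51, 4.20 and 6.74 FPKM in epididymal libraries and listed at 0 in all inguinal ones. *Msln*, which encodes mesothelin, was at 0.802, 3.64 and 2.82 FPKM and also listed at 0 in inguinal libraries, where 8 of the 12 markers were at 0. The summed level of the list was 17.2 to 26.4 FPKM in epididymal and 18.8 to 21.9 FPKM in inguinal libraries, and *Cldn15* made up most of the latter (18.8, 21.8 and 18.8 FPKM). The protease inhibitor *Slpi* was at 9.04, 14.1 and 16.6 FPKM in the epididymal and 0.685, 1.07 and 0.163 FPKM in the inguinal libraries (log2 difference 3.64 ± 0.34, adjusted p = 0.00025), and its relation to the mesothelial markers was not tested.

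Macrophage markers were mostly higher in epididymal adipocytes. Of 18 tested markers of lipid-associated macrophages, the cells that take up lipid in obese fat, 16 were higher (background 15.2%) and none was lower, with a median of 2.16. Their summed level was 3331 to 4608 FPKM in epididymal and 974 to 1306 FPKM in inguinal libraries. *Gpnmb*, a membrane glycoprotein of lipid-laden macrophages, was at 341, 340.2 and 208 FPKM in epididymal and 25.0, 27.6 and 20.2 FPKM in inguinal libraries (log2 difference 3.56 ± 0.21, adjusted p = 7.7e-05). *Trem2*, a lipid receptor, was at 132, 154 and 90.2 FPKM in the epididymal and 17.2, 23.4 and 13.8 FPKM in the inguinal libraries (log2 difference 2.75 ± 0.24, adjusted p = 0.00019). *Spp1*, the cytokine osteopontin, was at 32.2, 27.9 and 11.8 FPKM in epididymal and 1.00, 1.04 and 0.536 FPKM in inguinal libraries (log2 difference 4.07 ± 0.36, adjusted p = 0.00019). The lowest epididymal library was above the highest inguinal one for each of these genes. *Mmp12*, a metalloelastase, and *Itgax*, the integrin CD11c, had log2 differences of 2.96 and 2.44, while *Itgad*, another CD11 integrin, did not pass the test (-0.69).

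Of 19 tested general macrophage markers, 14 were higher in epididymal adipocytes and none was lower (median 1.86). *Adgre1*, which encodes F4/80, was at 82.5, 83.5 and 45.3 FPKM in the epididymal and 12.5, 13.7 and 10.7 FPKM in the inguinal libraries (log2 difference 2.42 ± 0.24, adjusted p = 0.00029), and *Cd68* was at 367, 347 and 246 FPKM in epididymal and 57.7, 60.9 and 41.0 FPKM in inguinal libraries (log2 difference 2.58 ± 0.20, adjusted p = 0.00014). The list's summed level was 1606 to 2662 FPKM against 471 to 835 FPKM, and none of its 20 members was listed at 0 in either group. Epididymal replicate 2 was the lowest of its group for *Gpnmb*, *Trem2* and *Adgre1*. The markers of resident tissue macrophages *Cd163*, *Lyve1* and *Retnla* did not pass the test and had log2 differences of -0.43, -0.53 and -0.39, whereas *Folr2* and *Mrc1* were higher (1.84 and 1.46).

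**Figure D3:**
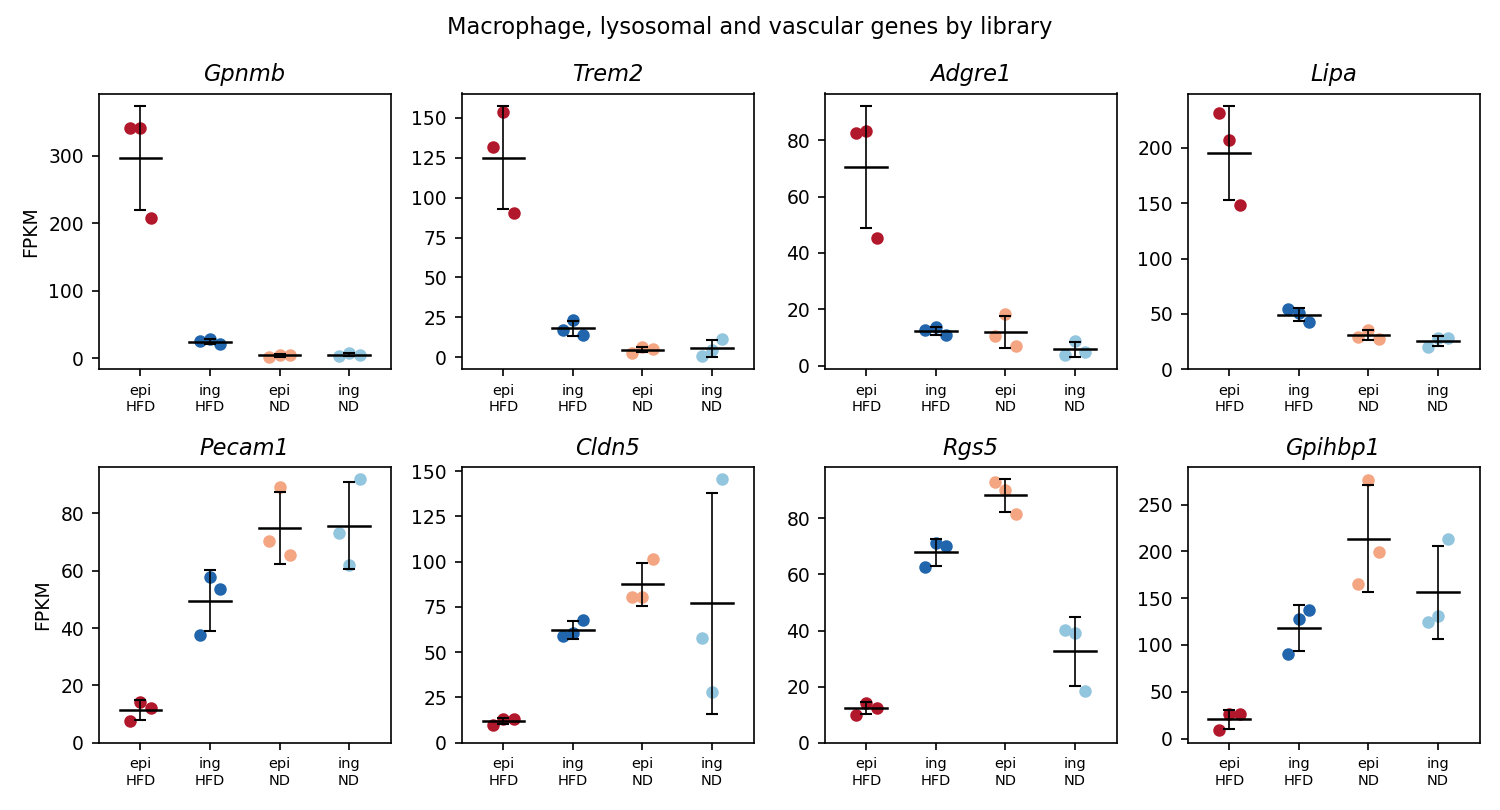
FPKM of macrophage, lysosomal (*Lipa*) and vascular genes by library in the 4 white groups; points are libraries, lines are means and bars are SD of 3 libraries. On the high-fat diet *Gpnmb*, *Trem2*, *Adgre1* and *Lipa* are higher in all 3 epididymal libraries, and *Pecam1*, *Cldn5*, *Rgs5* and *Gpihbp1* are higher in all 3 inguinal ones.

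Lysosomal genes were higher in epididymal adipocytes almost throughout. Of 28 tested, 25 were higher and none was lower, with a median of 1.10. *Lipa*, the acid lipase that hydrolyses cholesterol esters and triglyceride in lysosomes, was at 231, 207 and 148 FPKM in the epididymal and 54.1, 51.3 and 42.6 FPKM in the inguinal libraries (log2 difference 1.96 ± 0.18, adjusted p = 0.00024). *Atp6v0d2*, a proton-pump subunit of macrophages and osteoclasts, had a log2 difference of 2.79 ± 0.23, adjusted p = 0.00016, and *Ctss*, a protease that processes antigen, one of 2.40 ± 0.21, adjusted p = 0.00018. *Psap* and *Ctsd*, among the most abundant, were at means of 1995 ± 189 and 2093 ± 94.8 FPKM in epididymal (SD, n = 3) and 837 ± 56.7 and 1079 ± 101 FPKM in inguinal libraries, with smaller log2 differences of 1.25 and 0.96. *Mcoln1*, *Scarb2* and *Atp6v0d1* did not pass the test, although *Atp6v0d1* did with the replicate block (0.34, adjusted p = 0.034). Macrophage markers differed in the same libraries, as given above, and their part in the lysosomal values was not tested.

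Many lysosomal promoters carry a sequence that the transcription factor TFEB binds, an E-box in a longer palindrome. The motif TCACGTGA, which is its own reverse complement and contains the E-box core CACGTG, was searched in the 250 bases before the RefSeq start sites (GRCm38.p6). It lay in 5 of the 21 lysosomal genes with a promoter in the table and in 177 of 9907 tested genes with one (1.79%); the core CACGTG lay in 9 of the 21 and in 9.9% of the 9907. Of the 21 genes 18 were called higher, among them 4 of the 5 holders. The windows of these 4 are shown, with the motif in capitals, as the places where it lies; coordinates give the printed stretch. A match is a description of letters and not of binding. The fifth holder was *Mcoln1*, which did not pass the test (0.15).
Ctsa, chr2:164833720-164833772, plus strand: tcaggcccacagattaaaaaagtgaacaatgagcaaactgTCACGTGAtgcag
Ctsd, chr7:142387879-142387966, minus strand: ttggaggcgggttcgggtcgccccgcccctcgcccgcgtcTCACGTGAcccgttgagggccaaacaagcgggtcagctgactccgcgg
Gla, chrX:134601153-134601255, minus strand: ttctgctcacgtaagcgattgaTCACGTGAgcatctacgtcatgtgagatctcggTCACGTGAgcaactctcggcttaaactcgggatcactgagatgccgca
Atp6v1a, chr16:44139344-44139431, minus strand: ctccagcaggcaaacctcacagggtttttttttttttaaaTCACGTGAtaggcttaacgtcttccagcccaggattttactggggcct
The protease *Ctsa* was at 187, 190.1 and 153 FPKM in epididymal and 73.6, 79.5 and 77.6 FPKM in inguinal libraries (log2 difference 1.19 ± 0.13, adjusted p = 0.00045), and *Gla*, a galactosidase with 2 matches, was at 14.8, 14.0 and 10.8 FPKM in the epididymal and 2.41, 5.91 and 4.13 FPKM in the inguinal libraries (log2 difference 1.62 ± 0.28, adjusted p = 0.0037). *Ctsd* and the proton-pump subunit *Atp6v1a* had smaller differences (0.96 and 0.81). *Tfeb* itself was at 12.4, 14.2 and 12 FPKM in epididymal and 9.68, 7.64 and 8.35 FPKM in inguinal libraries, a log2 difference of 0.57 ± 0.15, adjusted p = 0.025, and lost its call without epididymal replicate 0 or 1 or inguinal replicate 1 or 2 (adjusted p up to 0.096).

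Most inflammatory, chemokine and complement genes that passed the test were higher in epididymal adipocytes. Of 19 inflammatory cytokines and enzymes tested, 14 were higher and *Nos2* was lower (log2 difference -1.89 ± 0.25, adjusted p = 0.0012); the number higher was 9 without epididymal replicate 0, 7 without epididymal replicate 1 and 6 with no filter on low values. *Saa3*, an acute-phase protein, was at 147, 212 and 159 FPKM in the epididymal and 22.3, 26.0 and 27.3 FPKM in the inguinal libraries (log2 difference 2.74 ± 0.16, adjusted p = 7.7e-05). *Il1rn*, the antagonist of the interleukin-1 receptor, had a log2 difference of 2.66 and *Tnfaip3*, an inhibitor of NF-kappaB, one of 1.47, while *Il1b*, *Il33* and *Tlr4* did not pass the test (0.13, 0.48 and 0.31). Of 22 chemokines and receptors, 13 were higher and 2 were lower. *Ccl2*, which recruits monocytes, was at 76.7, 73.6 and 46.1 FPKM in epididymal and 24.4, 16.6 and 8.58 FPKM in inguinal libraries (log2 difference 2.04 ± 0.35, adjusted p = 0.0038). The lower ones were *Cxcl9*, an interferon-induced T-cell attractant, and *Cxcl14* (-1.31 and -1.32).

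All 7 MHC class II genes tested were higher in epididymal adipocytes, with a median of 1.44. *H2-Aa*, a class II alpha chain, was at 507, 474 and 324 FPKM in the epididymal and 169, 185 and 123 FPKM in the inguinal libraries (log2 difference 1.44 ± 0.22, adjusted p = 0.002), and the peptide loader *H2-DMb1* had a log2 difference of 2.01. Complement genes were higher in 12 of 19 and lower in none. *C3*, the central component, was at 305, 333 and 404 FPKM in epididymal and 104, 115 and 129.5 FPKM in inguinal libraries (log2 difference 1.57 ± 0.15, adjusted p = 0.00027); the receptors *C3ar1* and *C5ar1* had log2 differences of 2.61 and 2.39, and the chains *C1qa*, *C1qb* and *C1qc* of 1.93, 2.08 and 2.09. *Cfd*, the adipocyte protease adipsin, did not pass the test (-0.79) but was lower with the replicate block (adjusted p = 0.012). The macrophage marker sums above differed in the same direction as all these groups, and their part was not tested.

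Cell-cycle genes were higher as well. Of 20 proliferation genes 15 were higher and none was lower (median 1.32). *Pcna*, the clamp of the replication fork, was at 55.4, 59.8 and 42.0 FPKM in the epididymal and 18.8, 13.1 and 12.8 FPKM in the inguinal libraries (log2 difference 1.79 ± 0.19, adjusted p = 0.00045). *Mki67*, a protein of cycling cells, was at 2.98, 7.33 and 2.85 FPKM in epididymal and 0.675, 1.21 and 1.2 FPKM in inguinal libraries (log2 difference 1.58 ± 0.35, adjusted p = 0.012). The groups did not overlap for either gene. Macrophage marker sums were also higher in the epididymal libraries, and which cells carried the cell-cycle transcripts was not tested.

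Endothelial genes had the lowest median of all lists with at least 7 genes tested. Of 16 markers 15 were lower, against a background of 8.01%, and none was higher; the median was -2.09. Their summed level was 76.1, 136 and 125 FPKM in the epididymal and 409, 518 and 504 FPKM in the inguinal libraries, and no marker was listed at 0. *Pecam1*, which encodes CD31, was at 7.5, 14.3 and 12.2 FPKM in the epididymal and 37.4, 57.7 and 53.5 FPKM in the inguinal libraries (log2 difference -2.1 ± 0.25, adjusted p = 0.00071). *Cldn5*, a tight-junction protein, was at 9.95, 12.9 and 12.9 FPKM in epididymal and 58.7, 60.5 and 67.8 FPKM in inguinal libraries (log2 difference -2.35 ± 0.14, adjusted p = 7.7e-05), and *Kdr*, the main receptor of vascular endothelial growth factor, at 2.54, 5.70 and 5.48 FPKM in the epididymal and 17.3, 24.9 and 24.9 FPKM in the inguinal libraries (log2 difference -2.22 ± 0.29, adjusted p = 0.00099). The groups did not overlap for these genes, and epididymal replicate 0 was lowest in each. *Vwf* was the exception (0.15, not past the test).

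Pericyte genes followed. Of 11 mural and smooth muscle markers 5 were lower and none was higher; *Rgs5*, a pericyte regulator of G proteins, was at 10.1, 14.3 and 12.3 FPKM in epididymal and 62.5, 71.1 and 70.2 FPKM in inguinal libraries (log2 difference -2.44 ± 0.15, adjusted p = 7.8e-05). The smooth muscle genes *Acta2* and *Tagln* had log2 differences of 0.36 and 0.25 and did not pass the test. The mural markers *Cspg4* and *Pdgfrb* did not pass either (-0.16 and -0.27), and their groups overlapped. *Gpihbp1*, which holds lipoprotein lipase on the capillary wall, was at 8.95, 26.8 and 26.7 FPKM in the epididymal and 90.6, 128 and 137 FPKM in the inguinal libraries (log2 difference -2.61 ± 0.39, adjusted p = 0.0019), and the retinol-binding *Rbp7* had a log2 difference of -2.17. *Lpl*, the lipase that *Gpihbp1* protein binds, did not pass the test (0.12). The inhibitor of metalloproteinases *Timp3* and the endothelin receptor *Ednrb* were lower by 1.90 and 1.92 on the log2 scale. The endothelial marker sums differed in the same libraries as these genes, and their part in them was not tested.

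Lymphocyte and fibroblast markers differed in part. Of 8 B cell markers 4 were lower in epididymal adipocytes and none was higher; *Cd79a* was at 0.0883, 0.149 and 0.295 FPKM in epididymal and 2.78, 2.40 and 1.55 FPKM in inguinal libraries. Of the 8, 3 passed the filter on low values only through the inguinal libraries, and with a filter of 2 FPKM 1 was lower. The summed level of B cell markers was 449 to 637 FPKM in epididymal and 454 to 628 FPKM in inguinal libraries, nearly all of it *Ighm*, an immunoglobulin heavy chain; without *Ighm* it was 13.3 to 19.6 FPKM against 31.6 to 42.2 FPKM, which do not overlap. Of 4 T and NK cell markers tested, *Il7r*, an interleukin receptor, was higher, at 22.9, 25.8 and 17.7 FPKM in the epididymal and 3.96, 2.95 and 3.19 FPKM in the inguinal libraries (log2 difference 2.54 ± 0.18, adjusted p = 0.00011), and *Thy1* was lower (-1.29 ± 0.36, adjusted p = 0.032), a call lost without epididymal replicate 0 or 2 or inguinal replicate 0 or 1 (adjusted p up to 0.099). The remaining tested T and NK cell markers, *Lck* and *Trac*, did not pass the test (log2 differences -1.20 and 0.75). *Lck* passed the filter on low values only through the inguinal libraries, so its direction was fixed by it. *Cd3e* and *Nkg7* did not pass that filter, but each was higher in every inguinal library than in any epididymal one. The call of *Il7r* therefore does not stand for the T and NK cell list as a whole. Of 16 fibroblast and progenitor markers 6 were lower and 2 were higher, and 3 were lower without epididymal replicate 0 or without inguinal replicate 0. Without epididymal replicate 1 none was higher, and without epididymal replicate 0 or inguinal replicate 1 or 2 the number higher was 1. *Ly6a*, which encodes the progenitor antigen Sca-1, had a log2 difference of -1.43 ± 0.15, adjusted p = 0.00043, but *Pdgfra* and *Dcn* had -0.17 and 0.19 and did not pass the test. Of 5 erythroid markers tested 3 were higher in epididymal libraries, with *Hba-a1* at 54.4, 96.8 and 60.1 FPKM in epididymal and 2.74, 12.7 and 10.5 FPKM in inguinal libraries; haemoglobin genes have near-identical copies and are uncertain.

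Adipocyte transcription factors gave no call between the depots. None of 15 tested passed limma's test, and 5 had an unadjusted p under 0.05; the number lower was 3 with TMM factors, 4 after quantile normalization, 5 after the non-mitochondrial rescaling, 3 with the replicate block (which also called 1 higher), 3 without epididymal replicate 2 and 1 without inguinal replicate 0. The genes *Pparg*, *Cebpa*, *Klf15* and *Prdm16* had log2 differences of -0.18, -0.12, -0.53 and -1.24; with the block *Klf15* was lower (adjusted p = 0.023). At the 3 libraries per group used here, a missed threshold does not show that the depots are alike.

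Secreted factors differed gene by gene: of 17 adipokines 4 were higher and 3 were lower in epididymal adipocytes, against 15.2% and 8.01% of all genes tested. *Lep*, which encodes leptin, was at 1415, 1422 and 1675 FPKM in the epididymal and 1230.2, 1394 and 1184 FPKM in the inguinal libraries. The epididymal values lay just above the inguinal ones, but the log2 difference of 0.24 ± 0.16, adjusted p = 0.32 did not pass, and the exact permutation test gave its smallest possible p of 0.1 (two-sided). *Agt*, the precursor of angiotensin, was at 33.3, 30.2 and 79.3 FPKM in epididymal and 1.5, 3.09 and 4.89 FPKM in inguinal libraries (log2 difference 3.69 ± 0.43, adjusted p = 0.00065). *Lcn2*, the iron-scavenging lipocalin 2, was at 25.0, 25.0 and 12.3 FPKM in the epididymal and 0.547, 2.19 and 1.5 FPKM in the inguinal libraries (log2 difference 3.51 ± 0.38, adjusted p = 0.00048), and *Gdf15*, a stress-induced hormone that acts on the hindbrain, at 39.7, 22.5 and 21.8 FPKM in epididymal and 7.37, 5.27 and 5.30 FPKM in inguinal libraries (log2 difference 2.1 ± 0.25, adjusted p = 0.00067). These 3 genes had no overlap between depots. On the inguinal side, *Apln*, the peptide apelin, was at 1.26, 1.98 and 1.24 FPKM in the epididymal and 7.07, 9.40 and 5.53 FPKM in the inguinal libraries (log2 difference -1.97 ± 0.24, adjusted p = 0.00078) and *Nrg4*, a neuregulin of brown and white fat, at 31.4, 26.2 and 35.3 FPKM in epididymal and 52.1, 58.4 and 65.1 FPKM in inguinal libraries (log2 difference -0.91 ± 0.15, adjusted p = 0.003). With the replicate number as a block 5 adipokines were lower in place of 3. *Hp*, the haemoglobin-binding haptoglobin, was among the most abundant genes, at 4979, 5224 and 5138 FPKM in the epididymal and 1825, 2844 and 2373 FPKM in the inguinal libraries (log2 difference 1.15 ± 0.22, adjusted p = 0.0058).

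**Figure D4:**
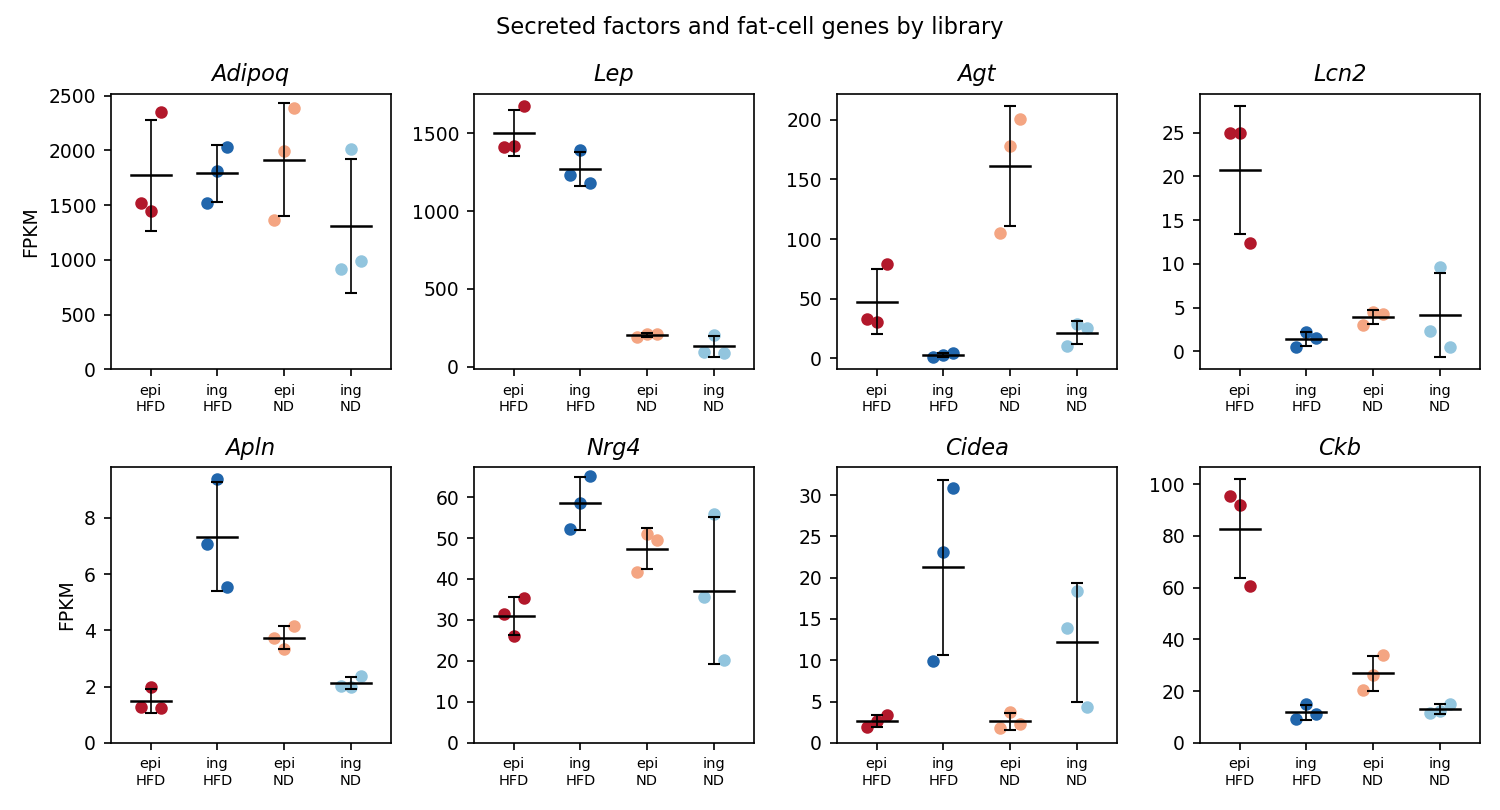
FPKM of *Adipoq*, *Lep*, 4 other secreted factors and 2 thermogenic genes by library in the 4 white groups; points are libraries, lines are means and bars are SD of 3 libraries. On the high-fat diet *Adipoq* overlaps between depots, *Agt*, *Lcn2* and *Ckb* are higher in every epididymal library, and *Apln*, *Nrg4* and *Cidea* in every inguinal one.

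Growth factors of the TGF-beta family were called in both directions. Of 17 tested 5 were higher and 2 were lower (1 without epididymal replicate 0 or 2), against 15.2% and 8.01% of all genes tested. *Tgfb1* was at 43.2, 38.9 and 33.0 FPKM in epididymal and 16.6, 19 and 17.5 FPKM in inguinal libraries (log2 difference 1.09 ± 0.14, adjusted p = 0.00094), *Gdf3*, an adipose ligand, had a log2 difference of 2.1 and *Nog*, a secreted antagonist of bone morphogenetic proteins, one of 1.77. *Bmp6* was lower, at 0.783, 1.63 and 1.89 FPKM in the epididymal and 5.44, 6.78 and 9.05 FPKM in the inguinal libraries (log2 difference -2.00 ± 0.28, adjusted p = 0.0015). The imprinted gene *Mest*, known to mark expanding fat, was at 462, 338 and 465 FPKM in epididymal and 539.7, 469 and 362 FPKM in inguinal libraries and did not pass the test (-0.11), whereas the imprinted *Peg3* and *Nnat* were lower by 0.79 and 1.2 on the log2 scale.

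Part of the genes of cholesterol synthesis and storage were higher in epididymal adipocytes. Of 23 genes of cholesterol synthesis and uptake 11 were higher and none was lower (median 0.60); after rescaling to the non-mitochondrial sum 5 were higher. *Fdps*, which makes farnesyl diphosphate, was at 42.3, 55.8 and 44.4 FPKM in the epididymal and 11.6, 17.0 and 13.5 FPKM in the inguinal libraries (log2 difference 1.73 ± 0.17, adjusted p = 0.00033), and *Dhcr7*, which makes the last step to cholesterol, at 26.2, 28.7 and 25.1 FPKM in epididymal and 9.77, 12.9 and 9.84 FPKM in inguinal libraries (log2 difference 1.27 ± 0.15, adjusted p = 0.00065). *Srebf2*, the transcription factor of this pathway, had a log2 difference of 0.75 ± 0.14, adjusted p = 0.0066. *Hmgcs1*, an early enzyme of the pathway, did not pass the test (-0.10). The motif TCACCCCAC, a form of the sterol response element, was found on either strand in the promoter windows of 1 of 17 members, *Hmgcs1*, and in 0.636% of tested genes. Of 11 genes that store or export cholesterol 6 were higher: *Soat1*, which esterifies cholesterol, was at 33.4, 25.3 and 21.3 FPKM in the epididymal and 5.04, 5.28 and 3.61 FPKM in the inguinal libraries (log2 difference 2.39 ± 0.21, adjusted p = 0.00018), and the exporter *Abcg1* had a log2 difference of 1.09. *Mylip*, a ubiquitin ligase, was lower (-1.29). The macrophage marker sums were also higher in the epididymal libraries, and their part in these values was not tested.

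Of 20 genes of fatty acid synthesis 5 were higher and none was lower; the count was 3 without epididymal replicate 2 or inguinal replicate 0, 8 with the replicate block and 3 after the non-mitochondrial rescaling. *Scd2*, a desaturase, was at 237, 214 and 259 FPKM in epididymal and 94.7, 124 and 102 FPKM in inguinal libraries (log2 difference 1.15 ± 0.14, adjusted p = 0.00086). *Elovl1*, an elongase, had a log2 difference of 1.02 ± 0.12, adjusted p = 0.00066. *Fasn*, the fatty acid synthase, was at 469, 587 and 759 FPKM in the epididymal and 353, 537 and 521 FPKM in the inguinal libraries, with overlapping groups (log2 difference 0.36 ± 0.23, adjusted p = 0.3), and *Acaca* and *Scd1* did not pass the test either (0.09 and 0.49). Of 15 genes of triglyceride synthesis, *Gpam*, the first acyltransferase, was higher, at 54.0, 57.1 and 67.3 FPKM in epididymal and 25.4, 33.2 and 32.6 FPKM in inguinal libraries (log2 difference 0.96 ± 0.15, adjusted p = 0.0025). Over all genes tested 15.2% were higher, so this list was not called more often than the background. Among lipid droplet proteins *Plin2* was higher (1.12 ± 0.21, adjusted p = 0.0054) and *Plin5* and *Cidea* were lower (-1.08 ± 0.18, adjusted p = 0.0036 and -2.69 ± 0.38, adjusted p = 0.0015), while the major coat protein of the adipocyte droplet, *Plin1*, did not pass the test (-0.22).

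Mitochondrial pathways had negative medians, and the number of calls was unstable. Among 22 genes of fatty acid oxidation 6 were lower in epididymal adipocytes and 1 was higher, among 23 of the TCA cycle and pyruvate entry 4 were lower and 1 was higher, and among 22 that break down branched-chain amino acids 5 were lower and 1 was higher. The medians were -0.34, -0.34 and -0.41. With the replicate block 11, 11 and 13 were lower, and after rescaling to the non-mitochondrial sum 15, 16 and 14. Leaving out one library at a time gave 1 to 11 lower genes for fatty acid oxidation, 0 to 9 for the TCA cycle and 2 to 9 for branched-chain catabolism. The count moved by more than 1.5 times without any library but epididymal replicate 2 for fatty acid oxidation, without each library for the TCA cycle, and without any library but inguinal replicates 0 and 1 for branched-chain catabolism. The lower members that kept their call without each library in turn were *Acadl* (-0.58 ± 0.12, adjusted p = 0.0092), a dehydrogenase of long-chain fatty acids, *Acat1* (-0.78 ± 0.14, adjusted p = 0.004) and *Ivd* (-0.86 ± 0.17, adjusted p = 0.0078), a step of leucine breakdown. *Ivd* was at 52.6, 56.8 and 78.2 FPKM in the epididymal and 99.6, 113 and 127 FPKM in the inguinal libraries. The mRNAs encoded by mitochondrial DNA held 26.8% to 36.8% of the protein-coding signal in epididymal and 26.7% to 35% in inguinal libraries, which overlap.

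Thermogenic genes differed in both directions. Of 17 tested 3 were lower and 4 were higher in epididymal adipocytes, against 8.01% and 15.2% of all genes tested. The number lower was 5 with the replicate block and without inguinal replicate 0, and 6 after rescaling. *Cidea*, a lipid droplet protein of brown and beige fat, was at 1.89, 2.6 and 3.35 FPKM in epididymal and 9.91, 23.1 and 30.9 FPKM in inguinal libraries, and the muscle and brown fat subunit of cytochrome oxidase *Cox8b* at 32.7, 46.9 and 41.9 FPKM in the epididymal and 71.5, 115 and 181 FPKM in the inguinal libraries (log2 difference -1.5 ± 0.30, adjusted p = 0.0081). *Ucp1*, the uncoupling protein, was at 0.371, 0.561 and 0.128 FPKM in epididymal and 0.167, 1.18 and 36.1 FPKM in inguinal libraries, so that inguinal replicate 2 alone set the inguinal mean and the groups overlapped (log2 difference -2.05 ± 1.23, adjusted p = 0.28). The creatine genes went the other way: *Ckb*, a creatine kinase, was at 95.6, 92.1 and 60.7 FPKM in the epididymal and 9.24, 14.9 and 11.2 FPKM in the inguinal libraries (log2 difference 2.76 ± 0.22, adjusted p = 0.00015), and the creatine transporter *Slc6a8* at 33.2, 28.5 and 22.0 FPKM in epididymal and 6.22, 6.08 and 8.80 FPKM in inguinal libraries (log2 difference 1.91 ± 0.20, adjusted p = 0.00039). Both are expressed in other cell types as well, and the part of the macrophage RNA was not tested.

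Insulin-pathway genes were called about as often as all genes tested (23.2% in either direction, 8.01% lower and 15.2% higher). Of 20 tested 3 were lower and 2 were higher, and 1 was lower without epididymal replicate 0 or 1 or without inguinal replicate 2. The number higher was 1 without any one of these or inguinal replicate 0. *Grb14*, an inhibitor of the insulin receptor, was at 38.8, 30.7 and 24.6 FPKM in the epididymal and 72.2, 73.0 and 77.5 FPKM in the inguinal libraries (log2 difference -1.25 ± 0.17, adjusted p = 0.0012), and the basal glucose transporter *Slc2a1* was higher (0.83 ± 0.16, adjusted p = 0.0065). *Slc2a4*, the insulin-responsive transporter, and *Insr* did not pass the test (-0.33 and 0.01). Of 18 genes of lipolysis and adrenergic signalling 3 were lower and 1 was higher: the natriuretic peptide receptor *Npr1* and the niacin receptor *Hcar2* were lower (-1.40 ± 0.23, adjusted p = 0.0033 and -0.72 ± 0.14, adjusted p = 0.0061), as was the protein kinase A subunit *Prkar2b* (-0.43 ± 0.11, adjusted p = 0.027; the call was lost without epididymal replicate 0 or 1 or inguinal replicate 1 or 2, with adjusted p up to 0.096), whereas *Gnas*, which encodes a stimulatory G protein, was higher (1.14 ± 0.24, adjusted p = 0.0096). The lipases *Pnpla2* and *Lipe* did not pass (-0.19 and -0.17). In the lipolysis list, too, calls were about as frequent as over all genes tested.

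In the matrix, 7 of 20 collagen genes were higher in epididymal adipocytes and none was lower. Of the 20, 2 passed the filter on low values only through the epididymal libraries, so their direction was fixed by it. *Col6a1* was at 238, 269.7 and 339.7 FPKM in epididymal and 74.8, 122 and 109.9 FPKM in inguinal libraries and *Col6a2*, which forms the same microfibril, at 255, 285 and 377 FPKM in the epididymal and 85.9, 136 and 110.2 FPKM in the inguinal libraries, with log2 differences of 1.48 ± 0.21, adjusted p = 0.0015 and 1.47 ± 0.21, adjusted p = 0.0015. Their partner chain *Col6a3* did not pass the test (-0.07), nor did the fibrillar genes *Col1a1* and *Col3a1* (0.04 and -0.52), but *Col3a1* was lower with the replicate block (adjusted p = 0.009). Of 39 other matrix genes 10 were higher and 4 were lower (8 with the replicate block, and 2 without epididymal replicate 0 or 2 or inguinal replicate 0 or 1). Over all genes tested 15.2% were higher and 8.01% were lower. *Timp1*, an inhibitor of metalloproteinases, was at 11.9, 10.4 and 10.9 FPKM in epididymal and 1.17, 1.58 and 1.03 FPKM in inguinal libraries (log2 difference 2.72 ± 0.18, adjusted p = 8.7e-05), and *Thbs1*, a matricellular glycoprotein, at 52.9, 49.2 and 79.2 FPKM in the epididymal and 19.5, 20.5 and 13.7 FPKM in the inguinal libraries (log2 difference 1.72 ± 0.22, adjusted p = 0.00094).

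Of 18 clock genes 8 were lower and none was higher (median -0.52), with 3 to 5 lower when any one of epididymal replicate 0 or 1 or the 3 inguinal replicates was left out. *Dbp*, an output gene of the clock, was at 16.0, 14.2 and 14.3 FPKM in epididymal and 26.2, 30.1 and 34.2 FPKM in inguinal libraries (log2 difference -0.99 ± 0.14, adjusted p = 0.0015), and *Hlf* and *Per3* were lower by 1.87 and 1.19 on the log2 scale; *Arntl* and *Clock* did not pass the test (0.50 and 0.20). The labels give no time of day for the collection. Of 19 interferon-response genes 8 were lower and 1, *Oas1a*, was higher (1.24 ± 0.22, adjusted p = 0.0044); 5 were lower without epididymal replicate 0 or inguinal replicate 2. *Irf7*, a master regulator of interferon genes, was at 5.94, 6.41 and 7.85 FPKM in the epididymal and 11.1, 16.4 and 16.6 FPKM in the inguinal libraries (log2 difference -1.06 ± 0.19, adjusted p = 0.0051).

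Of 25 genes of hypoxia and angiogenesis 5 were higher and 7 were lower, and 3 were higher when any one epididymal library was left out. *Ndrg1*, induced by low oxygen, was at 7.28, 9.34 and 11.3 FPKM in epididymal and 23.8, 22.9 and 32.7 FPKM in inguinal libraries (log2 difference -1.46 ± 0.20, adjusted p = 0.0013), and *Angpt1*, the ligand of the endothelial receptor Tie2, was lower (-1.35 ± 0.26, adjusted p = 0.0063). *Hif1a* did not pass the test (0.23). Of 19 stress-response genes 7 were higher and none was lower, with 4 higher without epididymal replicate 1 or 2. *Phgdh*, the first enzyme of serine synthesis, was at 144, 137 and 244 FPKM in the epididymal and 35.7, 49.8 and 54.9 FPKM in the inguinal libraries (log2 difference 1.86 ± 0.25, adjusted p = 0.0011). The regulators *Atf4*, *Xbp1* and *Ddit3* did not pass the test (-0.07, 0.23 and 0.25). Antioxidant genes were higher in 11 of 30 and lower in 4, and without inguinal replicate 1 in 7 and 2, while 2 were also lower without epididymal replicate 0 or 1 or inguinal replicate 2. *Gstm1*, a glutathione transferase, was at 187, 205 and 267 FPKM in epididymal and 58.2, 66.7 and 84.7 FPKM in inguinal libraries (log2 difference 1.65 ± 0.18, adjusted p = 0.00054), and *Gstt1*, of another class, went the other way, at 16.1, 13.0 and 24.8 FPKM in the epididymal and 57.1, 49.5 and 66.3 FPKM in the inguinal libraries (log2 difference -1.69 ± 0.23, adjusted p = 0.0012).

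Long noncoding RNAs differed in both directions. *AI662270* was at 15.9, 20.6 and 9.81 FPKM in epididymal and 4.73, 4.80 and 3.30 FPKM in inguinal libraries (log2 difference 1.69 ± 0.27, adjusted p = 0.0025), and *Zfp652os* was at 1.29, 0.957 and 2.11 FPKM in the epididymal and 0.223, 0 and 0 FPKM in the inguinal libraries (log2 difference 1.75 ± 0.32, adjusted p = 0.0049). *Gm12505* was lower in epididymal adipocytes, at 0.174, 0 and 0.113 FPKM in epididymal and 1.76, 2.47 and 3.18 FPKM in inguinal libraries (log2 difference -2.30 ± 0.27, adjusted p = 0.00069). *Zfp652os* passed the filter on low values only through the epididymal libraries and *Gm12505* only through the inguinal ones. The directions of both were therefore fixed by the filter and are no support. Of 13 well-known lncRNAs 2, *Neat1* and *Mir22hg*, were lower, both with calls that were lost without epididymal replicate 1 or 2 or inguinal replicate 0, among others (adjusted p up to 0.13 for *Neat1* and 0.086 for *Mir22hg*). *Malat1* and *Meg3* did not pass the test (0.02 and -0.22).

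On the high-fat diet, genes with near-identical copies moved with the library feature described above. Of 267 genes with a pseudogene named after them, 153 (57.3%) were higher in epididymal libraries and 3 (1.12%) were lower, while of 462 pseudogenes 53 (11.5%) were higher and 184 (39.8%) were lower. Ribosomal protein genes, which have many such copies, were higher in 22 of 30 (median 1.55) and lower in none. Their median level was 261 to 335 FPKM in epididymal and 93.4 to 133 FPKM in inguinal high-fat libraries. On the normal diet it was 197.5 to 327 FPKM in epididymal libraries and 380, 193.5 and 472 FPKM in inguinal replicates 0, 1 and 2. It was thus highest in inguinal replicate 2, so on that diet the ribosomal median did not follow the feature. *Rpl29* was at 117, 140.0 and 125 FPKM in the epididymal and 5.07, 9.09 and 4.99 FPKM in the inguinal libraries on the high-fat diet and at 76.9, 127 and 138 FPKM in epididymal normal-diet libraries. In inguinal normal-diet replicates 0, 1 and 2 it was at 135, 9.79 and 17.6 FPKM, so replicate 0 was like the epididymal libraries. For 47 pseudogenes called lower, the median was 0.245 to 0.507 FPKM in the epididymal and 3.70 to 4.33 FPKM in the inguinal high-fat libraries, and on the normal diet 0.245, 4.69 and 6.37 FPKM in inguinal replicates 0, 1 and 2. *Ftl1*, the ferritin light chain, was at 2401, 2504 and 1904 FPKM in epididymal and 349, 372 and 295 FPKM in inguinal libraries and is uncertain for the same reason. Among protein-coding genes without such copies and without ribosomal protein genes, 1842 were higher and 831 lower, and the counts of macrophage, lysosomal, MHC class II, HOX and endothelial genes stayed within 1.5 times of those given.

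The same depots were compared on the normal diet. There 696 genes (5.15%) differed in a joint fit of the 12 white libraries, 289 (2.14%) higher in epididymal and 407 (3.01%) higher in inguinal. Inguinal normal-diet libraries held lymphocyte RNA and were spread widely. B cell markers without *Ighm* summed to 1730, 314 and 1390 FPKM in their replicates 0, 1 and 2, against 84.15 to 176 FPKM in epididymal ones. In epididymal normal-diet replicate 2, markers of the epididymis, vas deferens and testis summed to 183 FPKM, against 0.522 and 2.71 FPKM in replicates 0 and 1. That library entered all normal-diet and interaction values, and its part in them was not tested. The mRNAs encoded by mitochondrial DNA held 40.1% to 66.5% of the protein-coding signal in epididymal and 20.5% to 60.5% in inguinal normal-diet libraries. The part of this spread in the normal-diet and interaction values was not tested either. Of the genes higher in epididymal adipocytes on the high-fat diet, 56.9% were also above inguinal on the normal diet, against 53.2% of all tested genes that were above on the high-fat diet. For genes higher in inguinal adipocytes the shares were 54.1% and 50.1%. There were 127 and 79 genes called the same way on both diets and 127 called in opposite ways.

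Several positional and mesothelial genes had the same direction on both diets. *Tbx15*, *Hoxc10* and *Shox2* differed on the normal diet by log2 -2.86 (adjusted p = 0.00031), -2.98 (adjusted p = 0.0006) and -2.48 (adjusted p = 0.011), and *Upk3b* by 3.52 (adjusted p = 0.0002). The HOX list as a whole did not: on the normal diet 5 of 24 were higher and 1 was lower in epididymal adipocytes, with a median of 0.23, and the interaction was called for 6. The change of depot difference with diet, tested as an interaction, was past the threshold in 1040 genes (7.7%); it shares the high-fat libraries with the comparison above. It was called for 14 of 16 endothelial markers, whose median depot difference was -2.09 under high-fat feeding and 0.21 under chow. It was called for 8 of 18 lipid-associated macrophage markers (2.16 and 0.25), for 10 of 28 lysosomal genes (1.10 and 0.18) and for all 7 MHC class II genes (1.44 and -0.87), the last beside the lymphocyte RNA named above. *Gpnmb* was at 2.06, 4.62 and 5.15 FPKM in epididymal and 2.89, 7.61 and 4.97 FPKM in inguinal libraries on the normal diet (interaction 3.9 ± 0.50, adjusted p = 0.0022). *Cldn5* was at 80.5, 80.8 and 101 FPKM in epididymal and 57.7, 28.0 and 145 FPKM in inguinal libraries (interaction -2.84 ± 0.60, adjusted p = 0.015).

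**Figure D5:**
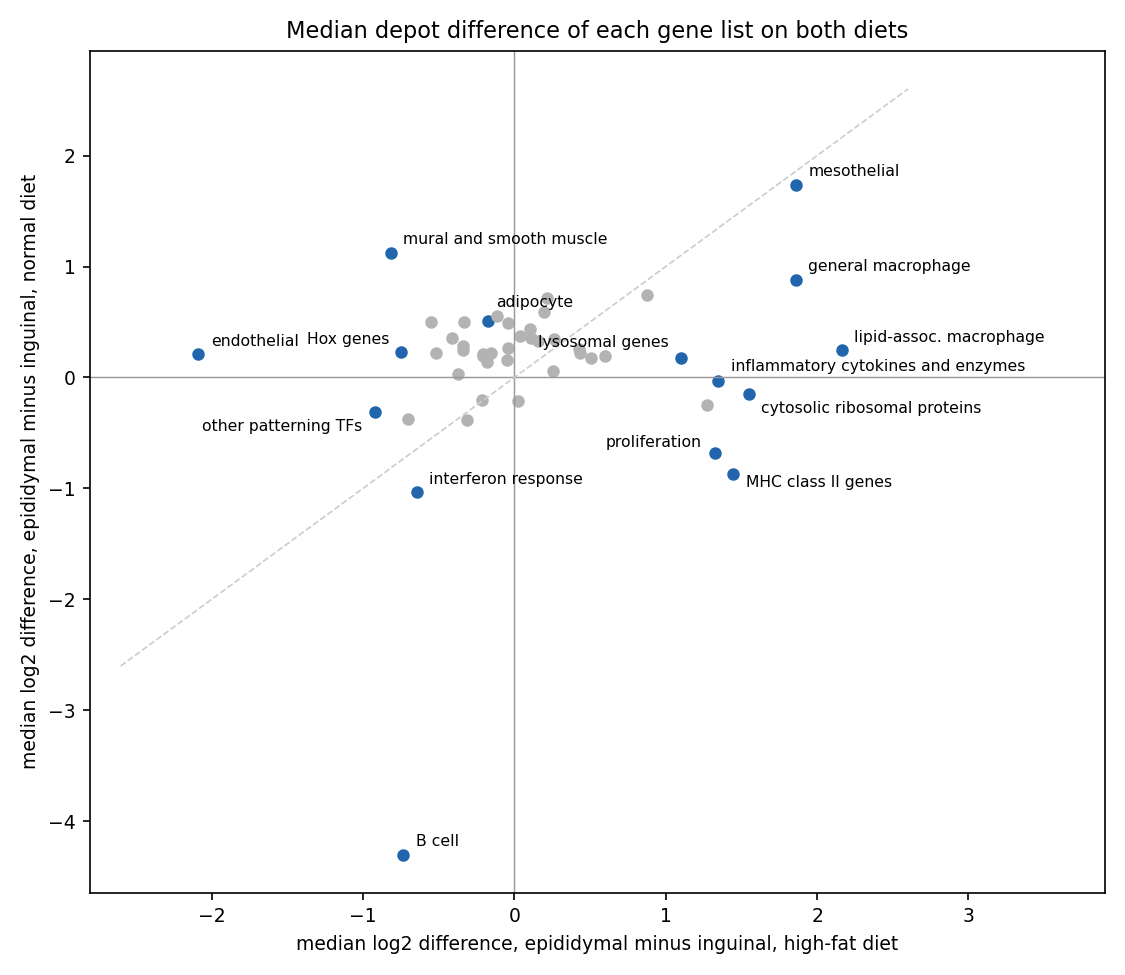
Median depot difference (epididymal minus inguinal, log2) of each gene list with at least 7 genes tested, on the high-fat diet (x axis) and the normal diet (y axis), with the line of equal values dashed and the lists discussed in blue. Mesothelial markers lie near the line (1.86 and 1.74), whereas endothelial markers are at -2.09 on the high-fat diet and 0.21 on the normal diet. For 6 of the 7 mesothelial markers the direction on the high-fat diet was fixed by the filter on low values.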

How the data were processed

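Poly(A) RNA of pooled mouse adipocytes was sequenced, per the labels' protocols. TopHat2 2.0.9, Cuffdiff 2.1.1 and the mm10 build are named in the submitters' processing notes. The authors deposited one value per gene and library, read here as FPKM because Cuffdiff reports that unit; the file headers do not name it. No read counts were used here, low values showed no whole-read steps, and depth is therefore unknown.

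Differences were fitted with limma 3.58.1 (R 4.3.3, empirical Bayes with a mean trend) on log2(FPKM + 0.5) of the 6 high-fat libraries, with Benjamini-Hochberg adjusted p under 0.05 over the 13503 genes tested; 543 of these have no RefSeq length. Normal-diet and interaction contrasts came from a joint fit of 12 white libraries. The script was tested on simulated data. The members and the 55 gene lists were chosen with earlier results of these data known, so list counts are descriptions. In the HOX, hypoxia and clock lists 1 tested member each passed the filter on low values only through the inguinal libraries. In the chemokine, proliferation and lipid-associated macrophage lists 1 each passed only through the epididymal ones. Among TGF-beta genes 1 passed through each group alone. The direction of these members was fixed by the filter. Genes were named by size of difference within each list (up to 4 each way), by largest difference, abundance or interaction over all genes, or as fixed genes of interest; other list members, among them those that did not pass, were named after their values were seen.

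Libraries of the same replicate number deviated together: correlations of their deviations from the group means were 0.25, 0.14 and 0.19, and -0.01 or less for other pairs. The labels do not say what the number marks. Some calls that a block on it changed are given beside the result, while others, among them *Tef*, *Ccr2* and *Adrb3*, are not. The alternatives were other pseudocounts, filters, scalings, array weights, the block, the 12-library fit and leaving out each library. Some genes covered by the naming rule are not reported here.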

Additional observations from a re-analysis of the deposited data

Results flagged for a closer look

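The depot difference changed most with diet, by the interaction test of limma over 12 white libraries, in genes that include leukocyte and pericyte genes. The interaction (high-fat minus normal, log2) was 6.10 for *Spp1*, 5.34 for *Il7r*, 5.23 for *Sema4d*, 5.09 for *Cd37*, 4.82 for *B4galnt1*, 4.80 for *Bcl2a1b*, 4.73 for *Ptprc* and 4.73 for *Galnt6*. Each of these genes was higher in epididymal adipocytes on the high-fat diet and had a higher inguinal mean on the normal diet. *Ptprc*, which encodes CD45, was at 84.4, 19.3 and 156 FPKM in inguinal and 3.77 to 9.95 FPKM in epididymal normal-diet libraries, beside the lymphocyte marker sums of those libraries; the part of lymphocyte RNA was not tested.

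In the other direction the interaction was -4.18 for *Ndufa4l2*, -3.99 for *Ppp1r14a*, -3.94 for *Rgs5*, -3.61 for *Cox4i2* and -3.37 for *Kcnj8*. *Rgs5*, *Ndufa4l2* and *Kcnj8* are known from pericytes, and *Rgs5* was at 81.6 to 93.0 FPKM in epididymal and 18.4 to 40.1 FPKM in inguinal normal-diet libraries. The pseudogenes *Gm9836* and *Gm11625* had interactions of -3.72 and -3.51; both were listed at 0 in all epididymal libraries of either diet, and the part of the mitochondrial tRNA and pseudogene feature of the libraries was not tested.

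Mitochondrial tRNA genes, which stood outside the comparison, were above 0 in numbers of 10, 17 and 18 in inguinal high-fat replicates 0, 1 and 2 and in none of the epididymal libraries.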

How the results depend on the processing

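The number of genes called stayed within 1.5 times of 3134 in all settings run except the joint fit of 12 libraries, which called 1667 (1107 higher in epididymal, 560 higher in inguinal). Rescaling to the non-mitochondrial sum kept the total (3496) but gave 1364 higher and 2132 lower. With the replicate number as a block 3887 genes were called (2521 higher, 1366 lower), 3089 of them shared with the unblocked fit. Leaving out one library at a time gave 2118 to 2755 calls, 1396 to 1788 higher and 722 to 1038 lower; the total fell by the most without epididymal replicate 0. Without epididymal replicate 0 (2118; 1396 and 722) and without epididymal replicate 1 (2163; 1416 and 747) the counts came nearest to a change of 1.5 times. A filter of 2 FPKM gave 2653 calls, and protein-coding genes without named copies, an alternative chosen after seeing the data, gave 2673. Of the values of named genes under these settings, 480 lost and 10 gained the threshold, and no called difference changed sign. The medians of triglyceride synthesis, lipid droplet, fatty acid uptake, retinoid, other matrix and immediate early genes changed sign under a scaling, and those of a few other lists without a library or with another filter. The files give no depth, so no floor can be set for genes listed at 0.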
